A study of Rattus norvegicus with 9 samples.

Results

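The proteasome subunit genes of rat pXEN cells are described here across 3 culture media. They were chosen by symbol: 49 of the 17315 genes in the tables have a symbol that starts with Psm, a letter from a to g and a number, and the 43 of them with at least 10 counts in 3 or more of the 9 libraries were taken as members. All 43 also passed the filter of the test, among 9130 genes tested. The 6 symbols left out were Psma8 and Psma3l (0 counts in every library), the inducible subunit genes Psmb8, Psmb9 and Psmb11, and Psmc3ip, which encodes a recombination factor and no proteasome subunit. By their place in the complex, the members are 15 genes of the 20S core, 17 of the 19S regulatory particle, 6 of assembly chaperones, and 5 of other activators and an inhibitor. Psmg3 is not analysed here.

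Rat pXEN cells are primitive extraembryonic endoderm stem cells, a cultured counterpart of the lineage that forms the yolk sac endoderm. Every library came from RX1, a single line of the WKY strain. The 3 libraries of T came from cells on fibronectin (100 ng/ml) in DMEM/MCDB medium with 2% FBS, β-mercaptoethanol, L-ascorbic acid, ITS, LA-BSA, 0.5 µM dexamethasone, and Pdgf, Egf and Lif at 10 ng/ml each. The 3 LPE libraries came from cells on collagen I (10 µg/ml) in serum-free DMEM/F12 and Neurobasal with N2, B27 and β-mercaptoethanol, and with Lif, Pdgf and Egf at 10 ng/ml each. The 3 CPE libraries came from cells in that same serum-free base and coating, with 1 µM Chir99021, a Gsk3 inhibitor, together with Pdgf and Egf at 10 ng/ml each and without Lif. LPE and CPE therefore differ from T in coating, basal medium, serum, dexamethasone and other supplements at once, and CPE also in Lif and Chir99021. Whether the 3 libraries of a medium come from separate cultures is not stated, so a p-value rests on a spread between libraries that could be technical alone.

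The 26S proteasome is the main protease for ubiquitin-tagged proteins in the cytosol and nucleus. Its 20S core is a barrel of outer alpha rings, which gate the entry, and inner beta rings, of which Psmb5, Psmb6 and Psmb7 encode the catalytic subunits. The 19S regulatory particle caps the barrel: its lid removes ubiquitin chains, and the ATPases of its base unfold the substrate and push it into the core. In many mammalian cells the genes of both particles are induced together by the transcription factor Nfe2l1 (also called Nrf1), through antioxidant response elements in their promoters.

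The core of that element, TGACNNNGC, was looked for on both strands of the RefSeq promoters of build GRCr8, each running from 250 bases before the gene's start to 50 after it. Of the 43 members 39 had a promoter there, and 8 of these held the motif (20.5%), against 12.1% of all 33469 promoters. Among the members of the core 4 of 14 held it (Psma3, Psmb2, Psmb5 and Psmb6), and among those of the 19S particle 2 of 14 (Psmd1, with a second one at base 23 after the start, and Psmd3, with one at base 14). The remaining ones were Psmd9 and Psme4. Psmd3 was called higher in both serum-free media, so carriers of the motif were called in either direction. Stretches of 80 bases before the start are shown for the core members, all of them called lower in CPE than in T, and one for Psmd1, a 19S member whose transcript was not called in any comparison. Capitals mark the motif on either strand, and sequences read 5′ to 3′ along the gene.
Psma3: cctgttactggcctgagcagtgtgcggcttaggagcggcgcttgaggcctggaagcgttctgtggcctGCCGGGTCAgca
Psmb2: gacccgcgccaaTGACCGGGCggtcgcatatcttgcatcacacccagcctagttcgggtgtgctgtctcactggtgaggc
Psmb5: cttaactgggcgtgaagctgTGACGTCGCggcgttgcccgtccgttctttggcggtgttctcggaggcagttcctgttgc
Psmb6: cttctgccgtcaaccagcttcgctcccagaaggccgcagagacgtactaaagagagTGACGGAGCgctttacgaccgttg
Psmd1: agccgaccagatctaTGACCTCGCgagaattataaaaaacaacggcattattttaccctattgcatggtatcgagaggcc
These lie at chr6:95219669-95219748 on the plus strand, chr5:144254978-144255057 (plus), chr15:32047380-32047459 (minus), chr10:55737808-55737887 (plus) and chr9:94157791-94157870 (plus) of GRCr8, a different build from the rn6 of the counts. The 4 core stretches end at the base before the start, and that of Psmd1 covers bases -180 to -101. A match is a description of the letters and no measure of binding.

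Counts on genes ranged from 1698764 to 4418465 per library (1698764 to 2161228 in T, 3119049 to 3233526 in LPE and 3127352 to 4418465 in CPE), and 1 count was worth 0.227 to 0.579 CPM (counts per 1000000, with TMM scaling). The members took 18189 to 22942 counts per library in T, 27991 to 29208 in LPE and 28736 to 39440 in CPE. All 10 primitive endoderm markers listed, among them Gata4, Gata6 and Sox17, had counts in every library and a mean above 5 CPM in each medium. Their levels differed between media: by edgeR (adjusted p under 0.05) 3 were higher and 2 lower in LPE than in T. In CPE 4 were higher and 5 lower than in T, and 1 higher and 4 lower than in LPE. Of all genes tested, 29.7%, 32.1% and 17.8% were called. Amn fell most in CPE, from 129 ± 9.97 CPM in T to 9.80 ± 2.24. Of 5 fibroblast markers only Col1a1 and Col3a1 had counts, with a sum of 1.39 to 31.3 CPM in T and 0 in LPE and CPE, while Col1a2, Dcn and Lum were at 0 throughout. The 5 blood and endothelial markers summed to 24.01 to 35.8 CPM in T, 76.7 to 102 in LPE and 20.6 to 38.04 in CPE, with Ptprc and Hbb at 0 in all libraries. Pecam1 had a mean of 23.3, 47.8 and 12.7 CPM in T, LPE and CPE, and Cdh5 of 5.61, 29.7 and 6.94. Both were called higher in LPE than in T and lower in CPE than in LPE (edgeR adjusted p under 0.05). Cd68 was not called. The part of these cell types in the results was not tested. Between replicates the members scattered more in LPE (median coefficient of variation 14.9%) and CPE (9.63%) than in T (7.73%). In all these bulk samples, fewer cells of a type and less RNA per cell cannot be told apart.

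Transcripts of the 20S core were lower in both serum-free media than in the serum medium, while those of the 19S particle, taken as a whole, stayed near their level. Summed over the 14 constitutive core genes, the level was 4643, 4358 and 4697 CPM in T, 2895, 2996 and 2847 in LPE and 2628, 2836 and 2916 in CPE. Every T library lay above every serum-free one, and LPE and CPE overlapped. Against T, the mean was 1.57-fold lower for LPE and 1.63-fold lower for CPE. Summed over the 17 genes of the 19S particle, the level was 4441, 4529 and 4448 CPM in T, 4956, 4651 and 4412 in LPE and 4821, 4658 and 4836 in CPE, which is 1.04-fold and 1.07-fold the T mean. Here LPE replicate 3 lay below the T libraries and the other serum-free libraries above them. Psmd2 alone went from a mean of 518 CPM in T to 778 in LPE and 990 in CPE. Of the 17 log2 fold changes against T, 8 were positive and 9 negative in LPE, and 6 positive and 11 negative in CPE. Sums over chosen genes were given no test.

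**Figure D1:**
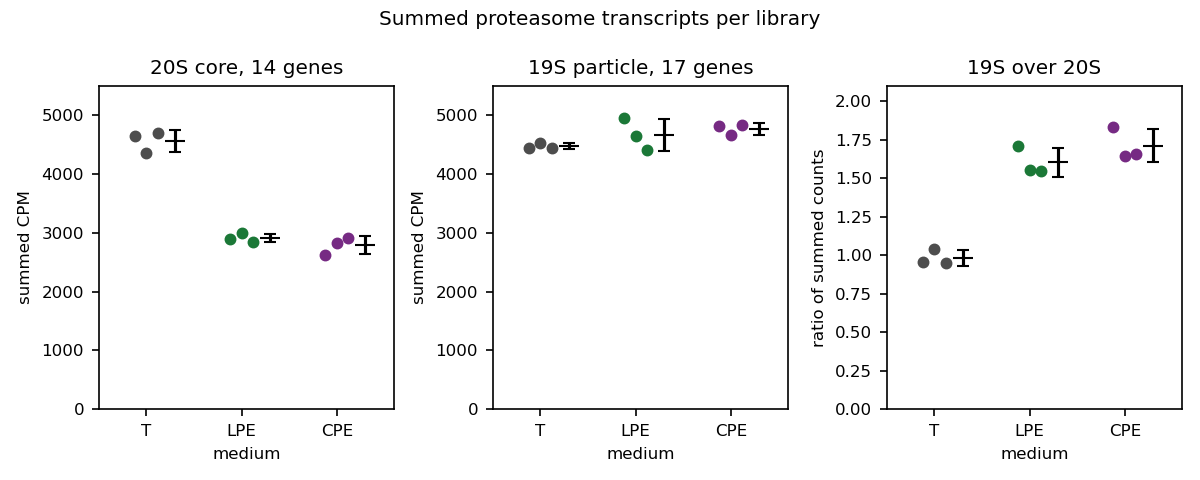
Summed CPM of the 14 constitutive 20S core genes (left) and of the 17 19S genes (middle), and the ratio of the summed counts of the 19S to the 20S genes (right), for each library (points) in T, LPE and CPE, with the mean ± SD of 3 libraries. The core sum of each T library is at least 4358 CPM and that of each serum-free library is at most 2996 CPM, whereas the 19S sums of the 3 media lie close together.

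The ratio of 19S to 20S counts within a library does not depend on how libraries are scaled. It was 0.956, 1.04 and 0.947 in T, 1.71, 1.55 and 1.55 in LPE and 1.83, 1.64 and 1.66 in CPE. The 3 T libraries stood below all others, and LPE and CPE overlapped. Since counts are not per length, the ratio says nothing about the number of subunits, and only its difference between media is of use. Leaving out single genes moved it either way and left every T library below the others: without Psmd2, for example, the mean ratio was 0.867 in T, 1.34 in LPE and 1.36 in CPE. Reads with several mapping places are outside the counts, and their share of all reads differed between the media (64.9% to 67.6% in T, 54.2% to 59.9% in LPE and 51.7% to 58.2% in CPE), which was not tested as a part of the result. RefSeq names pseudogenes or like copies after 19 of the 43 members, Psmb3 with the most (10), and reads of these members may be split with a copy. They are Psma2, Psma3, Psma5, Psma6, Psma7, Psmb3, Psmb4, Psmb6, Psmb7, Psmc4, Psmc6, Psmd1, Psmd8, Psmd12, Psmd14, Psme1, Psme2, Psme3 and Psmg4. Over the members without such a name (5 constitutive core genes and 11 of the 19S particle) the mean ratio (± SD, n = 3) was 1.38 ± 0.0953 for T, 2.61 ± 0.0696 for LPE and 2.65 ± 0.231 for CPE.

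Across single genes, 23 of the 43 members were called in LPE against T by edgeR's quasi-likelihood test (adjusted p under 0.05 over all 9130 genes), 5 higher and 18 lower, where 29.7% of all genes tested were called, 15.0% higher and 14.7% lower. In CPE against T 24 were called, 4 higher and 20 lower, against 32.1% of all genes, 16.8% higher and 15.3% lower. CPE against LPE called 7 members, 2 higher and 5 lower, against 17.8% of all genes (9.56% and 8.23%), which is a share near that of all genes. Psmd10 is among the 18 lower calls in LPE and the 2 higher calls in CPE against LPE. It passed the member rule through T and CPE, so its difference from LPE was built in. The median log2 fold change of the members was -0.36, -0.49 and -0.04 in these comparisons, beside -0.03, -0.01 and 0.01 over all genes tested. Both comparisons with T use the same 3 T libraries. Against the 18 lower calls in LPE, 11 were made without T replicate 1 and 11 without T replicate 3.

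**Figure D2:**
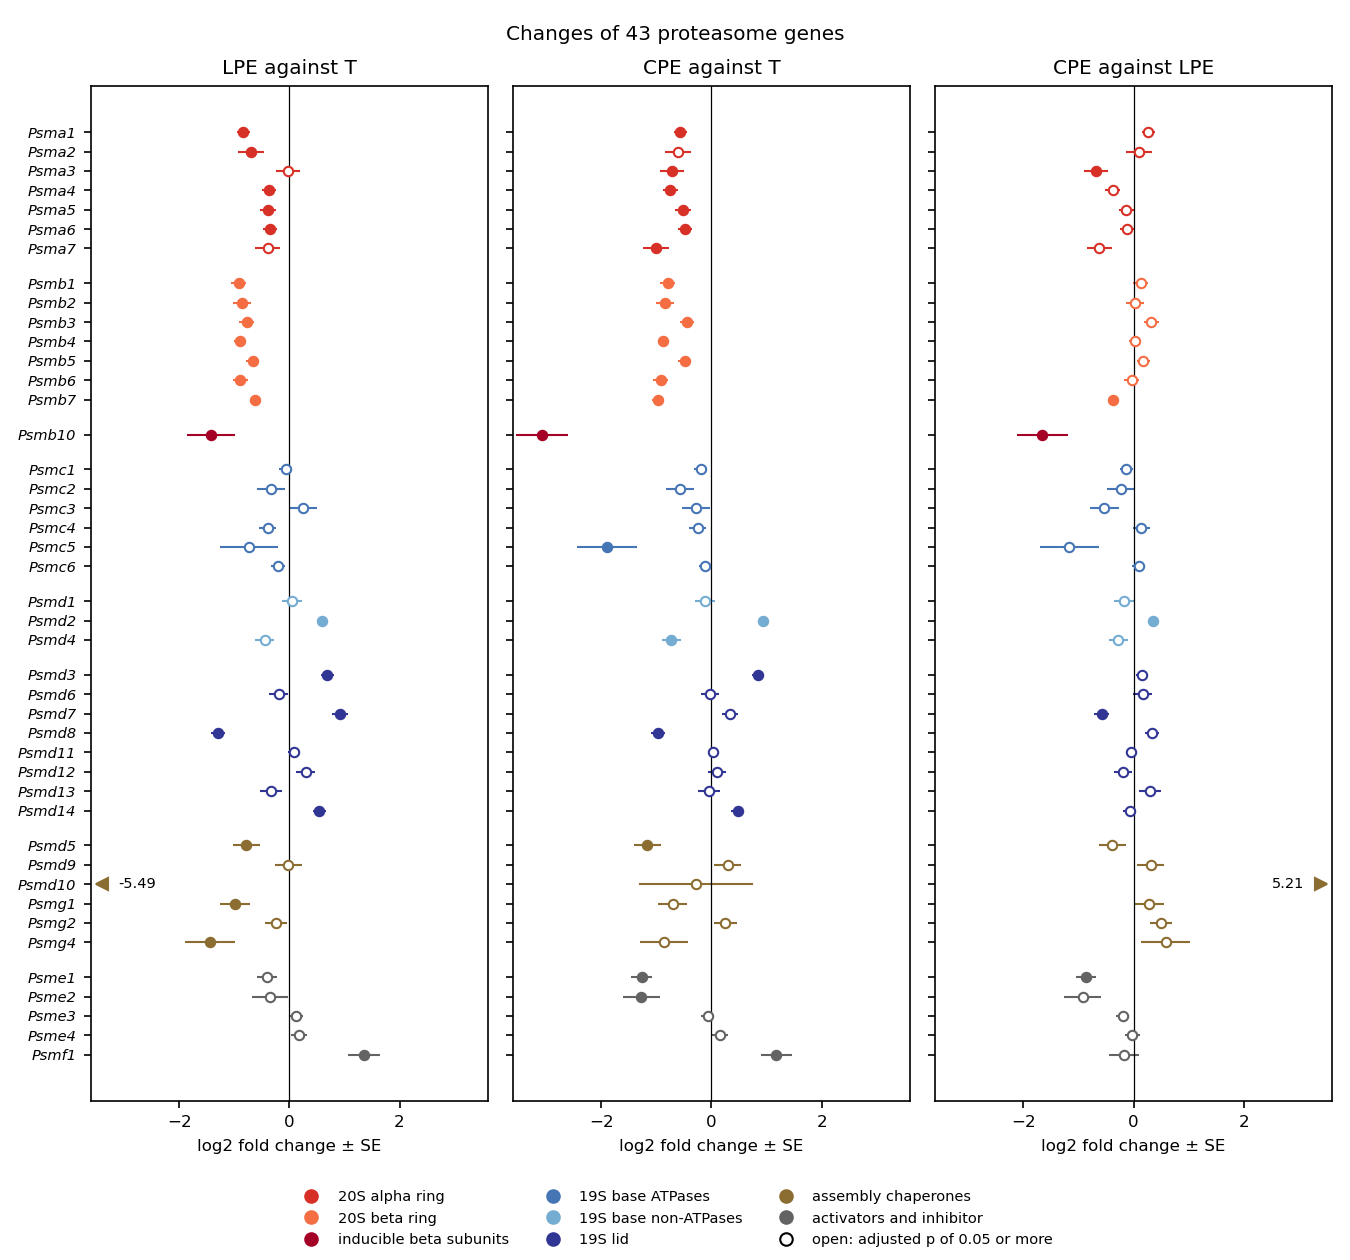
Log2 fold change ± SE of each of the 43 members in the 3 comparisons (edgeR), coloured by role, with filled points for an adjusted p under 0.05. The 20S genes (red and orange) lie left of 0 in both comparisons with T (Psma3 in LPE, at -0.02, turned with the reads of either strand and without T replicate 2 or LPE replicate 2), the 19S genes (blue) on both sides, and Psmd10, drawn as an arrow, lies off the axis at -5.49 and 5.21.

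Among the 7 alpha ring genes 5 fell in LPE and 6 in CPE, and none rose (by edgeR, by DESeq2 or at an unadjusted p under 0.05). Of all genes tested, 14.7% and 15.3% were called lower. Psma3 and Psma7 were not called in LPE, and Psma2 was not in CPE (edgeR adjusted p = 0.0582). Psma4 stood at 423, 411 and 495 CPM in T, 337, 389 and 308 in LPE, and 236, 258 and 299.6 in CPE. No LPE or CPE library reached the T range, and CPE lay below LPE throughout. Psma4 fell 1.29-fold in LPE (edgeR adjusted p = 0.0464) and 1.68-fold in CPE (log2 fold change -0.74, SE 0.13, adjusted p = 0.000435). The LPE call of Psma4, like those of Psma5 and Psma6, is close to the threshold and was lost in edgeR with RLE size factors (adjusted p = 0.0541, 0.0526 and 0.0541). DESeq2 itself kept these calls. In edgeR they were also lost in a fit of the 6 libraries alone (adjusted p = 0.0505, 0.0634 and 0.0627). Leaving out the 20 genes of highest count did the same (adjusted p = 0.0548, 0.0516 and 0.0548), as did several fits that left out a library. Psma1 had the largest alpha ring fall in LPE, 1.78-fold, from 398 ± 19.4 to 223 ± 1.45 CPM (mean ± SD, n = 3), and Psma7 had it in CPE, 2.01-fold.

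Psma3 behaved otherwise. It was measured at 70.4, 85.7 and 78.1 CPM in T, 79.9, 63.4 and 87.2 in LPE, and 39.2, 54.5 and 48.96 in CPE. LPE lay around T, and CPE lay below both. It fell 1.64-fold in CPE against T (edgeR adjusted p = 0.0212) and 1.61-fold against LPE (adjusted p = 0.0377), but its log2 difference of -0.02 between LPE and T was not called. The call against T failed on leaving out T replicate 2 or 3 or CPE replicate 1 (adjusted p = 0.0898, 0.0759 and 0.0689). Against LPE the call was lost without LPE replicate 1 or 3 or CPE replicate 1 or 3 (adjusted p = 0.0731, 0.105, 0.109 and 0.0732) and with a replicate block (adjusted p = 0.0524).

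The 7 constitutive beta ring genes all fell in both serum-free media, between 1.53-fold (Psmb7) and 1.89-fold (Psmb1) in LPE and between 1.37-fold (Psmb3) and 1.97-fold (Psmb7) in CPE. These calls stand beside 14.7% and 15.3% of all genes called lower. Psmb7, which encodes the subunit with trypsin-like activity, was at 591, 526 and 515 CPM in T, 330.2, 380.4 and 356 in LPE, and 266, 283 and 279 in CPE. The media were fully separated, T above LPE and LPE above CPE. Its log2 fold change against T was -0.61 ± 0.11 (SE) in LPE (edgeR adjusted p = 0.000491) and -0.98 ± 0.11 in CPE (adjusted p = 5.95e-06). In CPE against LPE it fell 1.29-fold (adjusted p = 0.0266), a call lost in 5 of 6 fits that leave out a library, those without LPE replicate 2 or 3 or any CPE replicate (adjusted p from 0.0507 to 0.0677).

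Psmb5 and Psmb6 encode the chymotrypsin-like and caspase-like subunits. Psmb5 went from 340.5 ± 19.01 CPM in T to 214 ± 18.9 in LPE and 243 ± 16.3 in CPE, and Psmb6 from 301 ± 31.2 to 163 ± 17.9 and 159 ± 7.07 CPM. Psmb2, a structural beta subunit, stood at 253, 244 and 245 CPM in T, 125, 136 and 149 in LPE, and 104, 146 and 166 in CPE. All serum-free libraries lay below T and overlapped each other. Its fall was 1.81-fold in LPE (edgeR adjusted p = 0.00102) and 1.79-fold in CPE (adjusted p = 0.00105). The 7 beta calls in LPE held in each fit that left out a library, and in CPE that of Psmb3 was lost without T replicate 1 or 3 (adjusted p = 0.072 and 0.0559).

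Counted together, 13 of the 15 core members (Psmb10 included) fell in LPE and 14 in CPE, none rose, and their median log2 fold change was -0.70 and -0.74. Without T replicate 1, T replicate 3 or LPE replicate 1 the count in LPE was 8, with Psma2, Psma4, Psma5, Psma6 and Psmb10 no longer called. In CPE, Psma6 lost its call without T replicate 1 (edgeR adjusted p = 0.0518). Groups did not overlap for 13 of the 15 genes in LPE and for 15 in CPE, where 47.3% and 54.4% of all genes tested had no overlap. The 6 core genes without a named copy in RefSeq fell in both media. Core subunits have short transcripts in mammals, and so do ribosomal proteins. Of 78 ribosomal protein genes tested 51 fell and 4 rose in LPE (median log2 fold change -0.51), and 47 fell and 6 rose in CPE (-0.54). Of all genes tested, 14.7% were called lower and 15.0% higher in LPE, and 15.3% and 16.8% in CPE. No transcript lengths were used here, and the part of length in the result was not tested.

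Psmb10, Psmb8 and Psmb9 encode the beta subunits that replace the constitutive catalytic ones in the immunoproteasome. Psmb10 was measured at 36.6, 38.2 and 34.4 CPM in T, 8.63, 13.4 and 18.9 in LPE, and 3.83, 3.63 and 5.48 in CPE. The media did not overlap: T was highest and CPE lowest. Psmb10 fell 8.41-fold in CPE against T (log2 fold change -3.07, SE 0.47, edgeR adjusted p = 0.000136), the largest fall of all members there, and this call held in every fit that left out a library. In LPE it fell 2.66-fold (adjusted p = 0.0226), a call lost on leaving out any T replicate or LPE replicate 1 (adjusted p = 0.0961, 0.095, 0.0876 and 0.064). Between CPE and LPE it fell 3.16-fold (adjusted p = 0.0196), a call lost without LPE replicate 3 or CPE replicate 2 (adjusted p = 0.0655 and 0.0613) and in a fit of the 6 libraries alone (adjusted p = 0.25).

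Its partners were hardly detected. Psmb8 had 2, 2 and 1 counts in T, 0 in each LPE library, and 0, 0 and 3 in CPE. Psmb9 had 1, 4 and 7 counts in T, 0, 24 and 8 in LPE and 0 in each CPE library, so a single LPE library held more than the others together. A count of 0 allows up to 3 counts, which is 0.681 to 1.74 CPM over the 9 libraries and covers counting error only. Neither gene, nor Psmb11 of the thymus proteasome (at most 4 counts), was tested.

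In the base of the 19S particle, none of the 6 ATPase genes was called in LPE by edgeR or DESeq2 (1 had an unadjusted edgeR p under 0.05), and only Psmc5 in CPE, where it fell. Of all genes tested, 29.7% and 32.1% were called. Psmc1 stood at 463, 495 and 426 CPM in T, 502, 446 and 373 in LPE, and 404, 387 and 416 in CPE. LPE spread around T, and CPE lay just below it, with no call (edgeR adjusted p = 0.728 and 0.231). Psmc6, Psmc4, Psmc3 and Psmc2 also had no call, with log2 fold changes from -0.39 (Psmc4) to 0.25 (Psmc3) in LPE and from -0.57 (Psmc2) to -0.11 (Psmc6) in CPE. Psmc5 was measured at 34.4, 17.95 and 41.4 CPM in T, 16.3, 25.5 and 14.7 in LPE, and 2.95, 7.49 and 14.8 in CPE. T libraries held 31 to 89 counts of it and CPE libraries 10 to 46. These raw counts overlapped, while the CPM of T and CPE did not. The fall was 3.73-fold (log2 fold change -1.90, SE 0.55, adjusted p = 0.0145), and the call failed on leaving out T replicate 1 or 3 or CPE replicate 2 (adjusted p = 0.0574, 0.0887 and 0.0528).

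The non-ATPase base genes moved apart. Psmd2 (Rpn1), the scaffold that docks ubiquitin receptors and Usp14, was measured at 498, 544 and 511 CPM in T, 787, 815 and 732 in LPE, and 1033, 949.8 and 988 in CPE. The media did not overlap, with T lowest and CPE highest. Psmd2 rose 1.503-fold in LPE (log2 fold change 0.59, SE 0.09, edgeR adjusted p = 0.000186) and 1.91-fold in CPE (0.94, SE 0.09, adjusted p = 1.97e-06). Between CPE and LPE it rose 1.27-fold (adjusted p = 0.0138), a call lost without LPE replicate 3 (adjusted p = 0.0539). Psmd4 (Rpn10), a ubiquitin receptor, went the other way, with 278, 304 and 260.4 CPM in T, 174, 258 and 186 in LPE, and 137, 198 and 174 in CPE. All serum-free libraries lay below T, and it fell 1.65-fold in CPE (adjusted p = 0.00409). In LPE its log2 fold change of -0.45 was not called (adjusted p = 0.06), but it was with a replicate block (adjusted p = 0.0242), without LPE replicate 2 (adjusted p = 0.00906) and without the filter on low counts (adjusted p = 0.0399). Psmd1 (Rpn2), the other large scaffold, had 297 ± 37.9, 308 ± 92.9 and 273 ± 19.4 CPM in T, LPE and CPE and was not called.

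In the lid, 3 of 8 genes rose and 1 fell in LPE, and 2 rose and 1 fell in CPE, where 29.7% and 32.1% of all genes were called. Psmd3 (Rpn3), a structural lid subunit, stood at 311, 296 and 288 CPM in T, 503, 506 and 435 in LPE, and 592, 473 and 539.9 in CPE. Serum-free libraries lay above every T library and overlapped each other. Psmd3 rose 1.61-fold in LPE (log2 fold change 0.69, SE 0.11, edgeR adjusted p = 0.000316) and 1.79-fold in CPE (0.84, SE 0.11, adjusted p = 4.45e-05). Psmd14 (Rpn11), the deubiquitinase that cuts chains from the substrate, rose 1.46-fold and 1.39-fold, from 233 ± 8.61 CPM in T to 340.0 ± 33.5 in LPE and 325 ± 27.1 in CPE.

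Psmd7 (Rpn8), the partner of Psmd14 in the lid, was measured at 158, 163 and 145 CPM in T, 299.8, 329 and 252 in LPE, and 209, 199.9 and 180.1 in CPE. LPE was highest, and the media did not overlap. It rose 1.89-fold in LPE (edgeR adjusted p = 0.000132) and fell 1.496-fold in CPE against LPE (log2 fold change -0.58, SE 0.13, adjusted p = 0.00665). Its log2 fold change of 0.34 in CPE against T was not called (adjusted p = 0.0736), but it was in a fit of the 6 libraries alone (edgeR adjusted p = 0.0387).

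Psmd8 (Rpn12), the subunit that joins last to the lid, was the member of the lid that fell, and its values are given because of that fall. It stood at 491, 504 and 467 CPM in T, 165, 205 and 224 in LPE, and 271, 239 and 235 in CPE. All serum-free libraries lay below T, and LPE lay below CPE. Psmd8 fell 2.46-fold in LPE (log2 fold change -1.30, SE 0.13, edgeR adjusted p = 2.63e-06) and 1.96-fold in CPE (adjusted p = 3.22e-05). Psmd13 (Rpn9) was measured at 109, 122 and 107 CPM in T, 119.5, 73.97 and 74.7 in LPE, and 98.5, 114 and 116 in CPE, overlapped between all media and was not called. Psmd6, Psmd11 and Psmd12 had no call either, with log2 fold changes from -0.19 (Psmd6) to 0.30 (Psmd12) in LPE and from -0.03 (Psmd6) to 0.10 (Psmd12) in CPE.

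For the whole 19S particle the calls were 4 higher and 1 lower of 17 in LPE and 3 higher and 3 lower in CPE, with median log2 fold changes of -0.07 and -0.11. Both counts are near the share of all genes called (29.7% and 32.1%). Groups did not overlap for 7 of 17 genes in LPE and 9 in CPE, at or below the 47.3% and 54.4% of all genes. Leaving out LPE replicate 1 gave 3 lower calls in LPE, with Psmc2 (edgeR adjusted p = 0.0382) and Psmd13 (adjusted p = 0.0302) besides Psmd8. CPE against LPE called Psmd2 higher and Psmd7 lower and no other 19S gene.

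**Figure D3:**
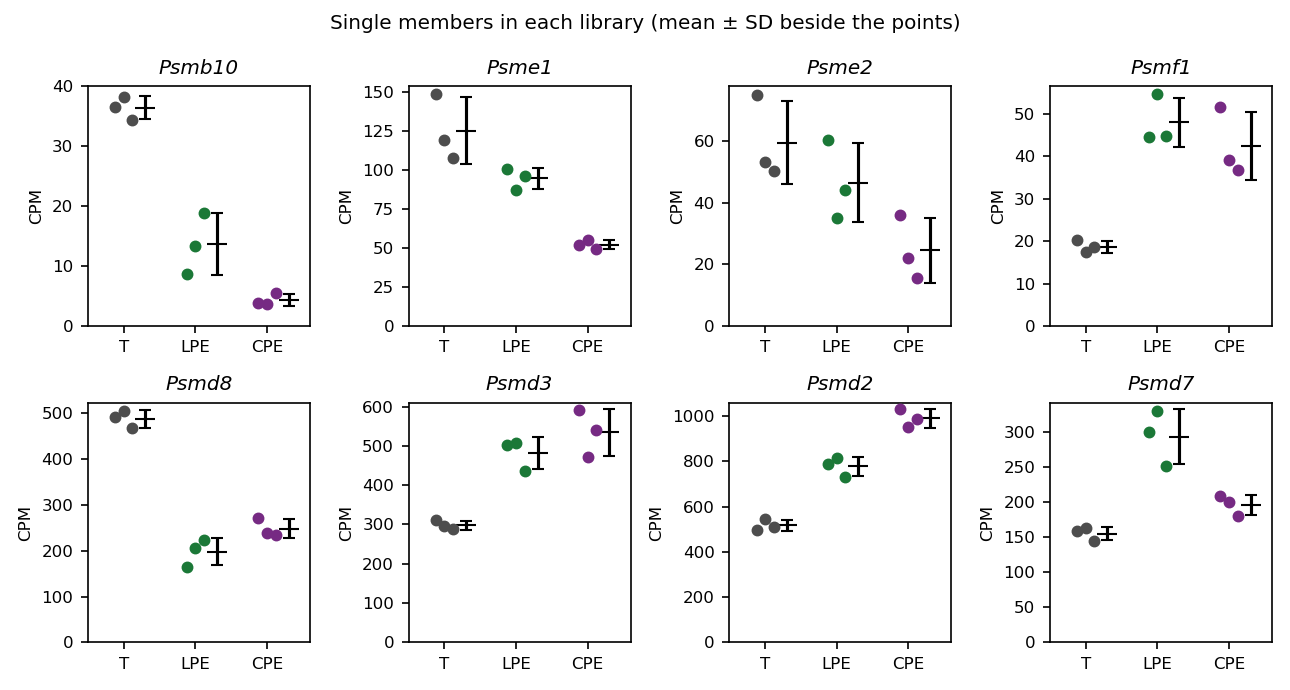
CPM of 8 members in each library (points) of T, LPE and CPE with the mean ± SD of 3 libraries, each axis from 0. Psmb10, Psme1 and Psme2 have their lowest mean in CPE, Psmf1, Psmd3 and Psmd2 are higher in both serum-free media, Psmd8 is lower in both, and Psmd7 is highest in LPE.

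Assembly chaperones hold subunits in place while the particles are built and leave the finished complex. Of the 6 genes, 4 were called lower in LPE (Psmd5, Psmd10, Psmg1 and Psmg4) and 1 in CPE (Psmd5), and none rose against T (by edgeR, by DESeq2 or at an unadjusted p under 0.05). Of all genes tested, 14.7% and 15.3% were called lower, and the count in CPE is near that share. The LPE count includes Psmd10, whose difference from LPE was built in by the member rule, as described below. Summed over the 6, the level was 425, 393 and 389 CPM in T, 274, 235 and 264 in LPE and 269.5, 324 and 340.5 in CPE, so that T was highest and CPE replicate 1 lay within the LPE range. Psmg1, which pairs with Psmg2 to build the alpha ring, stood at 127, 123 and 115 CPM in T, 74.8, 31.7 and 77.9 in LPE, and 67.8, 84.5 and 71.8 in CPE. All serum-free libraries lay below T, LPE replicate 2 lowest. It fell 1.98-fold in LPE (log2 fold change -0.99, SE 0.27, edgeR adjusted p = 0.0114). In CPE its log2 fold change of -0.70 was not called (adjusted p = 0.0554), though DESeq2 called it (adjusted p = 0.0489). Psmg2 had 60.8 ± 3.56, 51.4 ± 3.48 and 72.4 ± 6.95 CPM, with no call.

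Psmg4, the partner of Psmg3 in alpha ring assembly, was measured at 54.02, 39.96 and 44.2 CPM in T, 6.71, 13.4 and 30.8 in LPE, and 32.4, 20.2 and 23.5 in CPE. All serum-free libraries lay below T, and those of LPE ranged from 21 to 96 counts. Psmg4 fell 2.71-fold in LPE (edgeR adjusted p = 0.023), a call lost without any T replicate or without LPE replicate 1 or 2 (adjusted p = 0.0986, 0.0511, 0.062, 0.0685 and 0.0588).

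Psmd5, Psmd9 and Psmd10 encode chaperones of the 19S base. Psmd5 fell 2.24-fold in CPE, from 91.4 ± 16.1 to 40.9 ± 5.31 CPM (edgeR adjusted p = 0.00174), and 1.72-fold in LPE, a call that failed on leaving out T replicate 1, T replicate 3, LPE replicate 2 or LPE replicate 3 (adjusted p = 0.127, 0.096, 0.0541 and 0.077). Psmd9 had no call, with 75.5 ± 8.41, 74.6 ± 16.6 and 92.4 ± 28.8 CPM. Psmd10, which encodes gankyrin, had 11, 12 and 15 counts in T, 0, 0 and 1 in LPE, and 16, 12 and 28 in CPE. It passed the member rule and the filter through T and CPE, where it has counts, so a difference from LPE was built in, and its 2 calls are given as a description. In LPE it was nearly absent, although the LPE libraries were deeper than those of T. Scaled for depth, the 38 counts of T stand against 1 of LPE at a ratio of 63.0 (95% exact interval of counting error 10.6 to 2553), and the 56 counts of CPE against LPE at 48.6 (8.38 to 1955). Psmd10 was called lower in LPE than in T (edgeR adjusted p = 0.00771) and higher in CPE than in LPE (adjusted p = 0.0161), the latter call being lost without CPE replicate 3 (adjusted p = 0.0531) and in a fit of the 6 libraries alone (adjusted p = 0.12).

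Psme1 and Psme2 encode the rings of PA28, an activator that opens the core without ATP and that interferon induces. Psme1 stood at 149, 119 and 108 CPM in T, 101, 87.3 and 96.2 in LPE, and 51.6, 55.2 and 49.3 in CPE. T was highest and CPE lowest, with no overlap. Psme1 fell 2.41-fold in CPE against T (log2 fold change -1.27, SE 0.19, edgeR adjusted p = 9.29e-05) and 1.82-fold against LPE (adjusted p = 0.00399). Its log2 fold change of -0.40 in LPE was not called (adjusted p = 0.113). In most libraries Psme1 had more reads on its own strand than without regard to strand (273 against 245 in T replicate 1), and both calls held with the reads of either strand. Psme2 was measured at 74.8, 53.3 and 50.2 CPM in T, 60.4, 35.1 and 43.9 in LPE, and 35.98, 22.03 and 15.5 in CPE. CPE lay below T and partly below LPE, and it fell 2.42-fold against T (adjusted p = 0.00837), a call lost without T replicate 1 (adjusted p = 0.0624). Against LPE its log2 fold change of -0.92 was not called (adjusted p = 0.0673), but it was with a replicate block (adjusted p = 0.0316).

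The nuclear activators had no call. Psme4, which encodes PA200, stood at 444, 525 and 486 CPM in T, 473, 491 and 676 in LPE, and 464, 556 and 596 in CPE. All media overlapped. Psme3, which encodes PA28 gamma, had 467 ± 32.05, 509.6 ± 67.98 and 445 ± 31.6 CPM. Psmf1, which encodes the proteasome inhibitor PI31, was measured at 20.2, 17.4 and 18.6 CPM in T, 44.4, 54.7 and 44.9 in LPE, and 51.6, 39.1 and 36.7 in CPE. Each serum-free library was above every T library. Psmf1 rose 2.56-fold in LPE (log2 fold change 1.36, SE 0.28, edgeR adjusted p = 0.00197) and 2.26-fold in CPE (1.18, SE 0.28, adjusted p = 0.00467), the largest rise of all members in both comparisons with T. Its counts were low, between 30 and 40 in each T library and between 114 and 176 in each serum-free one.

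Other genes of the pathway whose symbols fall outside the pattern were taken from lists by function. Of 17 tested partners of the proteasome (further subunits, shuttle factors, deubiquitinases and regulators) 1 rose and 5 fell in LPE, 4 rose and 3 fell in CPE, and 5 rose and none fell in CPE against LPE by edgeR (1 was lower at an unadjusted p under 0.05, and DESeq2 called 1 lower). These counts stand beside 29.7%, 32.1% and 17.8% of all genes called, and those against T are near that share. Their median log2 fold change was 0.05, 0.47 and 0.27, beside the medians of all genes given above. Nfe2l2, a relative of Nfe2l1 that binds the same element, had 169 ± 9.13, 152 ± 9.49 and 140.3 ± 15.2 CPM with no call, and Nfe2l1 is not analysed here. Pomp, the chaperone of core maturation, had at most 0.840 CPM as a mean in any medium and was not tested. Named copies were looked for among the members only, and a loss of Pomp reads to several mapping places was not tested. Its low counts therefore need not mean a low transcript level. Shfm1, a small lid subunit also known as Sem1, was at 182, 123 and 195 CPM in T, 127, 69.3 and 85.9 in LPE, and 129, 131 and 136 in CPE. It fell 1.78-fold in LPE (edgeR adjusted p = 0.00901), a call lost without T replicate 3 (adjusted p = 0.0625). Adrm1 (Rpn13), a ubiquitin receptor of the base named after its values were seen, rose 1.75-fold in LPE, from 125 ± 9.34 to 219 ± 34.2 CPM (adjusted p = 0.0027).

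Shuttle factors carry ubiquitinated proteins to the proteasome. Ubqln2 stood at 47.5, 30.7 and 52.5 CPM in T, 57.9, 86.4 and 56.1 in LPE, and 362, 282 and 258 in CPE. CPE was far above both other media, and it rose 6.85-fold against T (log2 fold change 2.78, SE 0.23, edgeR adjusted p = 4.1e-07) and 4.49-fold against LPE (adjusted p = 5.95e-06). Rad23b, another shuttle factor, was at 711, 711 and 619 CPM in T, 365, 413 and 383 in LPE, and 273, 331 and 342 in CPE. It fell 1.76-fold in LPE (adjusted p = 7.83e-05) and 2.16-fold in CPE (adjusted p = 3.43e-06). Txnl1, a thioredoxin-like protein bound to the 19S particle, stood at 256, 309 and 306 CPM in T, 280.0, 259.5 and 246 in LPE, and 427, 494 and 511 in CPE. Only CPE was raised, 1.82-fold against LPE (adjusted p = 0.000124) and 1.64-fold against T (adjusted p = 0.000305).

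**Figure D4:**
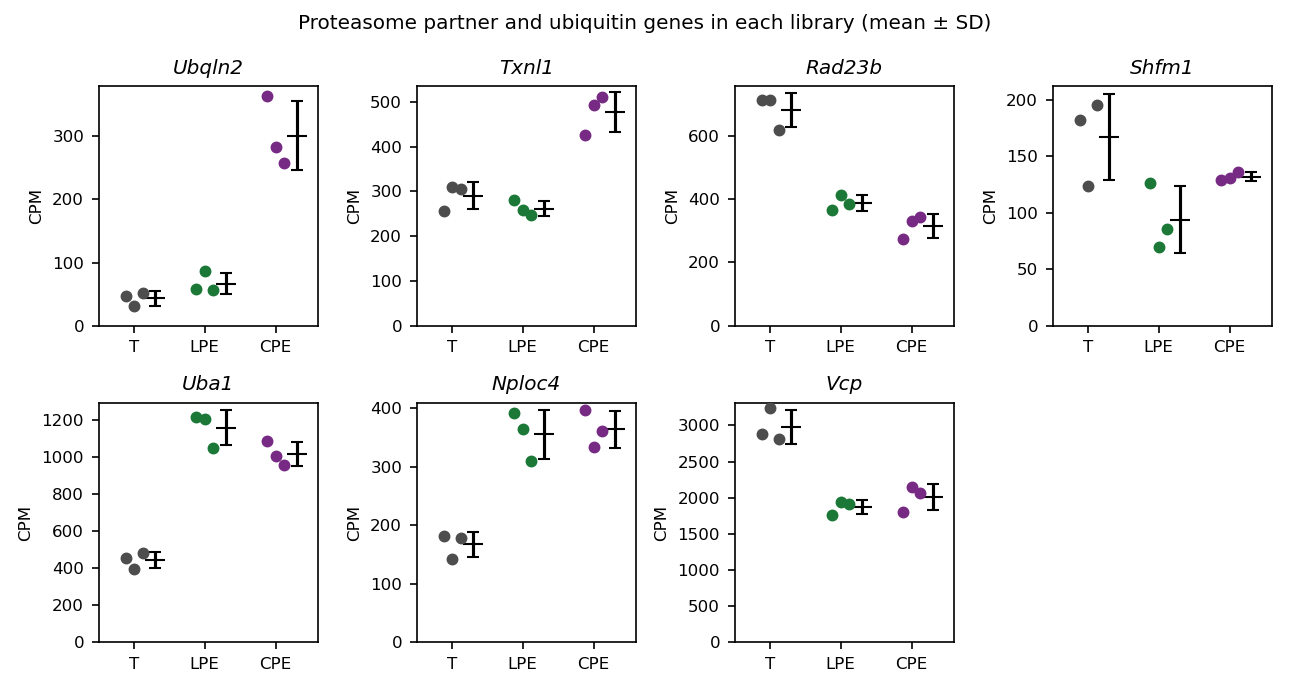
CPM of 7 partner and ubiquitin genes outside the Psm pattern in each library (points) of T, LPE and CPE with the mean ± SD of 3 libraries, each axis from 0. Ubqln2 and Txnl1 are highest in CPE, Uba1 and Nploc4 are higher in both serum-free media, and Rad23b and Vcp are lower in both.

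Among 12 genes of ubiquitin supply and substrate unfolding 2 rose and 4 fell in each comparison with T (29.7% and 32.1% of all genes were called in these), and none was called in CPE against LPE by edgeR (1 had an unadjusted p under 0.05, and DESeq2 called 1, Nsfl1c). Uba1, the main ubiquitin-activating enzyme, stood at 455, 398 and 484 CPM in T, 1218, 1209 and 1049.7 in LPE, and 1087, 1005 and 960.2 in CPE. It rose 2.598-fold in LPE (log2 fold change 1.38, SE 0.10, adjusted p = 1.97e-07) and 2.28-fold in CPE (adjusted p = 6.25e-07). Nploc4, a cofactor of the unfoldase Vcp, was at 182, 143 and 178 CPM in T, 392, 365 and 309.9 in LPE, and 396, 333 and 361 in CPE, and rose 2.12-fold and 2.16-fold. Vcp itself went the other way, at 2876, 3242 and 2815 CPM in T, 1755, 1943 and 1918 in LPE, and 1806, 2146 and 2069 in CPE. It fell 1.59-fold in LPE (adjusted p = 4.15e-05) and 1.48-fold in CPE (adjusted p = 0.000149).

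Genes of antigen presentation and interferon response, which often accompany the immunoproteasome, were mixed: of 6 tested 2 rose and 1 fell in LPE, 1 rose and 3 fell in CPE, and 1 fell in CPE against LPE, beside 29.7%, 32.1% and 17.8% of all genes called. B2m, the light chain of MHC class I, stood at 58.9, 53.3 and 45.6 CPM in T, 12.5, 6.22 and 6.09 in LPE, and 28.6, 12.04 and 12.9 in CPE. It fell 6.34-fold in LPE (edgeR adjusted p = 0.000292) and 2.95-fold in CPE (adjusted p = 0.00896), the latter call being lost without T replicate 1 (adjusted p = 0.0542). Tapbp, which loads peptides onto MHC class I, was at 20.7, 19.1 and 24.6 CPM in T, 62.97, 86.1 and 46.2 in LPE, and 87.6, 64.3 and 37.4 in CPE, and rose 3.02-fold and 2.92-fold. Irf1, a transcription factor of interferon signalling, was at 6.55, 9.27 and 11.6 CPM in T, 37.1, 32.9 and 51.6 in LPE, and 20.9, 8.18 and 7.41 in CPE. LPE was above T and CPE, and it rose 4.399-fold in LPE (adjusted p = 0.00321) and fell 3.33-fold in CPE against LPE (adjusted p = 0.0148). The call against LPE was lost without LPE replicate 3, CPE replicate 2 or CPE replicate 3 (adjusted p = 0.0656, 0.0638 and 0.0583).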

How the data were processed

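RNA of 9 libraries, depleted of ribosomal RNA, was made into libraries with a directional kit and sequenced as paired ends of 101 cycles, per the labels' protocols. The deposited files hold raw counts per gene and strand, in the layout of STAR's gene counts, which hold reads mapped to 1 place. The submitters' processing notes name CASAVA 1.8.2, Trimmomatic 0.33, STAR 2.5.1, DESeq2 and rn6; no annotation is named there. The counts of the strand opposite to the first read, which the values show to be the gene's strand, were used as deposited, without the 4 summary lines.

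Gene counts of the 9 libraries were fitted together with edgeR 4.0.16 (R 4.3.3; TMM factors, filterByExpr with at least 10 counts and a total of 15, quasi-likelihood F test), and p-values were adjusted over 9130 genes by Benjamini and Hochberg, with calls under 0.05. An SD is over 3 libraries. Values in all 9 libraries are given for the 3 largest called rises and falls per comparison, the inducible subunits, Psme1 and Psme2, the highest and lowest member of each particle, and up to 2 called rises and falls of each outside list; Psmd8, and the means of other members, were added after their values were seen, as were the ribosomal protein genes. A gene of the outside lists that this rule names is not reported here. Members and lists were chosen with earlier results of these data known. On simulated counts for 9130 genes, 38% of 2-fold and 77% of 4-fold changes were recovered in LPE against T, 41% and 74% in CPE against T, and 51% and 73% in CPE against LPE, with 7 false of 122, 5 of 120 and 4 of 128 calls. The simulation pooled mean levels over media and gave a gene the same spread, from a trend over levels, in every medium. Replicates of LPE and CPE scattered more than those of T, so these rates need not hold for the data. Alternatives were RLE and upper-quartile factors, DESeq2 1.42.0, no filter, the 6 libraries compared alone, reads of either strand, the 20 genes of highest count left out, a replicate block, and each library left out. Leaving out libraries for the sums and the count ratio, and reads of either strand for the ratio, were chosen after seeing the data.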

Additional observations from a re-analysis of the deposited data

How the results depend on the processing

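The core sums in LPE and CPE were 0.624 to 0.654 and 0.598 to 0.630 of T when each library was left out in turn, and those of the 19S genes 1.025 to 1.084 and 1.055 to 1.079 over the alternatives run. Of 54 called member results none changed sign, 37 kept their call in every alternative and 46 in all but those that left out a library. Of 75 uncalled ones, 20 changed sign somewhere, with a log2 fold change of at most 0.28 in size, and 17 were called somewhere. In a fit of the 6 libraries compared alone, CPE against LPE called 3 members, 1 higher and 2 lower, 0 of them in the core, and LPE against T called 2 19S genes lower, as did the fit without a filter and that with a replicate block. The cause was not tested. Leaving out a library gave, in LPE against T, 8 to 12 core genes called, 11 to 16 members lower and 1 to 3 19S genes lower. In CPE against LPE it gave 1 to 2 core genes called, 1 to 3 members higher, 3 to 5 members lower, and 1 to 2 19S genes higher and 1 to 2 lower. The replicate block called 22, 24 and 7 members in LPE against T, CPE against T and CPE against LPE, and 2558, 2751 and 1500 of all genes, against 2716, 2928 and 1624 without it. Same-numbered libraries did not deviate together (correlations from -0.0283 to 0.00998 over 9 pairs of libraries, and from -0.0425 to 0.0364 over the 18 pairs with other numbers), so the numbers gave no sign of pairing. Correlations over all genes tested cannot show a shared effect on few genes. The median log2 fold change of all genes shifted by less than 0.1 in every alternative (to -0.10 from -0.03 in LPE against T without a filter). The depth of T, the shallowest group, limits genes with few counts there, such as Psmf1 (30 to 40 counts per T library). Psmd10, Psmc5 and Psmb10 had few counts too, but their lowest were in the deeper serum-free libraries (Psmd10 in LPE, Psmc5 and Psmb10 in CPE).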
